A study of Rattus norvegicus with 2 samples.

Results

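Aminoacyl-tRNA synthetases are the enzymes that join each amino acid to its matching tRNA, the step that fixes the genetic code before translation begins. Their genes were examined in rat thymus after repeated cocaine administration. The family was chosen with earlier results of these data known. Members were taken by gene symbol, as 1 capital letter followed by ars and an optional 1, 2 or 3, together with Eprs1, Farsa and Farsb, and no measured value entered this rule. This gave 32 genes, each with a single transcript cluster (the set of short probes that stands for a gene on the array), among 15037 named genes and 23188 transcript clusters. By compartment 19 encode cytosolic and 13 encode mitochondrial enzymes, whose symbols end in 2. Iars2, Lars2, Mars2 and Tars3 also carry such symbols in RefSeq and were not analysed here.

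Thymus RNA came from 1 male rat given 20 mg/kg cocaine intravenously each day for 7 days (cocaine group) and from 1 control male rat, which the label calls not stimulated and the methods describe as given saline. Both animals were Sprague-Dawley rats of 8 weeks, sacrificed 1 day after the last administration. Each biotinylated RNA was read on 1 Clariom S array. The sample labels name thymus as the source, while their extraction note mentions spleen. On both arrays the 7 measured thymocyte markers had log2 intensities of 11.14 or more, and the 3 measured B cell markers, which would be bright in spleen, reached at most 7.86.

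A mammalian cell keeps separate sets of synthetases for its cytosol and for its mitochondria, and the mitochondrial enzymes are made from nuclear genes and imported. Several cytosolic synthetases are bound together in the multi-synthetase complex. In other mammals the transcription factor ATF4, which responds to amino acid shortage and to stress of the endoplasmic reticulum, is known to raise the expression of many cytosolic synthetase genes. Developing thymocytes divide and synthesize protein, and so depend on both sets.

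The differences between the arrays were small for this family. With cocaine, 1 of the 32 synthetases was higher than in the control by more than 1.5-fold, against 1.98% of all transcript clusters, none was lower by as much, against 2.29%, and 31 lay within 1.5-fold. Among the transcript clusters whose mean intensity reached the median of all (the brighter part), these shares were 2.1% higher and 1.96% lower. At 1.2-fold, 4 were higher, against 11.2% of all, and 1 was lower, against 11.4%. No member differed by 2-fold, against 0.151% of all that were higher and 0.224% that were lower by as much. The counts at 1.5-fold and 2-fold, and the 4 higher at 1.2-fold, are close to the background, while the 1 lower at 1.2-fold is below it. That gene, Hars2, was 1.16-fold lower on the intensities as deposited, and so within 1.2-fold before normalization. Aars2 was the gene past 1.5-fold, Hars1, Fars2 and Vars1 came next on the higher side, and Hars2 was the lowest. The values are log2 intensities after quantile normalization, and a difference is cocaine minus control, so a difference of 1 is a 2-fold change. Since a group was 1 rat on 1 array, no replicate spread could be measured, no test was run, and the precision of all values is limited by the number of arrays.

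**Figure D1:**
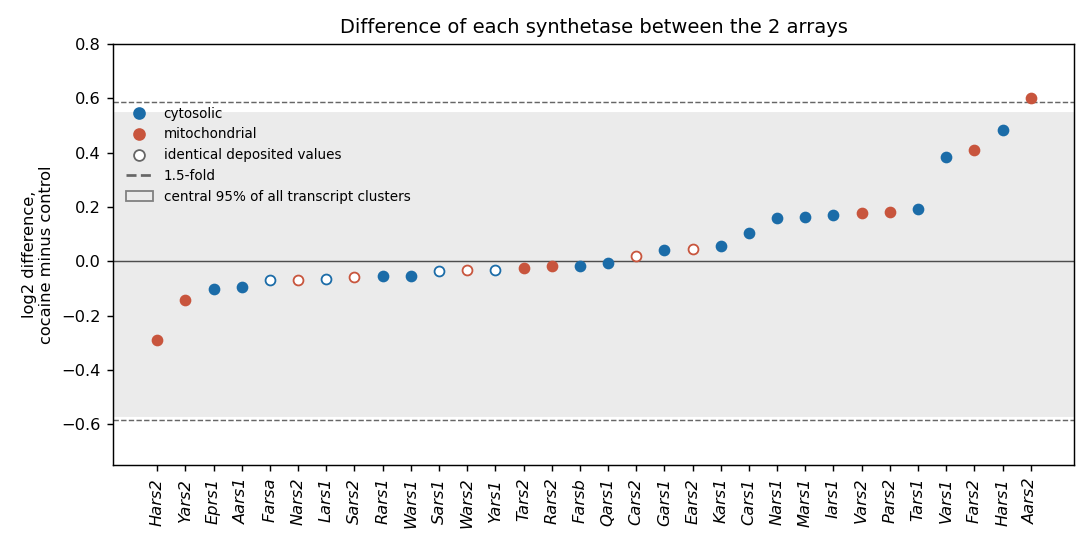
Log2 difference (cocaine minus control, y axis) of each of the 32 synthetases in order, with cytosolic enzymes in blue and mitochondrial enzymes in red. Dashed lines mark 1.5-fold, the grey band holds the central 95% of all transcript clusters (-0.57 to 0.55), open points had identical deposited values, and Aars2 is the point past the line.

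The median difference of the family was -0.012, against 0.012 for all transcript clusters and -0.023 for those in the brighter part. The sign of the family median was not stable, since it was 0.019 on the log2 values as deposited, 0.041 with each array centred on its median and 0.0069 after lowess centring. The differences ran from -0.29 to 0.60. Under all 4 scalings 13 members were higher and 4 were lower, and the other 15 were near 0 or changed sign. No such count over all transcript clusters is set beside these, so no imbalance is read from them. In the deposited table itself 19 members (59.4%) were higher with cocaine, 4 (12.5%) were lower and 9 (28.1%) held the same value on both arrays. Of all transcript clusters 37% were higher, 35.9% lower and 27.2% identical, and of those in the brighter part, where 29 of the 32 members lie, 45.5% were higher, 31% lower and 23.5% identical.

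The 9 members with identical deposited values were the cytosolic Sars1, Yars1, Lars1 and Farsa and the mitochondrial Sars2, Nars2, Ears2, Wars2 and Cars2. Their deposited linear intensities ranged from 85.2 for Ears2 to 2829 for Sars1. Quantile normalization gave them differences between -0.070 (Farsa) and 0.045 (Ears2), which are products of the scaling and not measured differences. No direction is given for these genes.

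**Figure D2:**
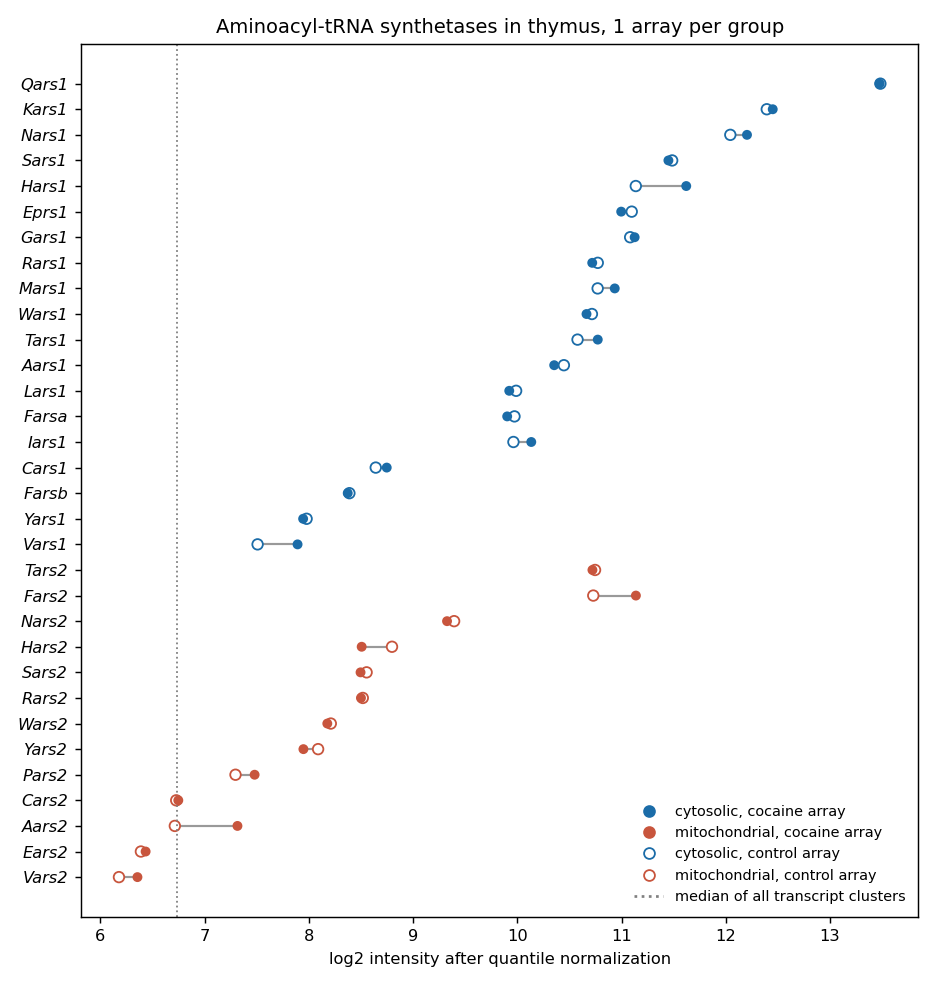
Log2 intensity (x axis) of each synthetase (y axis) on the control array (open points) and the cocaine array (filled points), in order of the control value within each compartment, with the median of all transcript clusters (6.74) as a dotted line. For most genes the 2 points nearly coincide, and the widest gaps are those of Aars2, Hars1, Fars2 and Vars1.

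Aars2, the mitochondrial alanyl-tRNA synthetase (NCBI gene 301254), measured 6.71 without and 7.31 with cocaine. The cocaine value was 1.52-fold higher, a difference of 0.60 that lay above 98.2% of all transcript clusters. It was 0.60 to 0.62 under the other scalings, always just past the limit of 1.5-fold, which is 0.585 on this scale. The mean intensity of Aars2 was at percentile 53.3 of all transcript clusters, so it is one of the dimmer members. Its cytosolic counterpart Aars1 measured 10.45 and 10.35 respectively, on the opposite side.

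Fars2, the mitochondrial phenylalanyl-tRNA synthetase, which works as a single chain, measured 10.73 on the control array and 11.14 on the cocaine array, 1.33-fold higher. The cytosolic enzyme is a tetramer of the products of Farsa and Farsb. Farsa held 1 value on both arrays, and Farsb was 8.39 on the control and 8.37 on the cocaine array. Vars1, the cytosolic valyl-tRNA synthetase, was 7.51 and 7.89, 1.30-fold higher. Its mitochondrial counterpart Vars2 was the dimmest member, at 6.18 and 6.36, and lay on the same side with a smaller difference of 0.18.

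Hars1 and Hars2 encode the cytosolic and the mitochondrial histidyl-tRNA synthetase from adjacent genes on opposite strands. Hars1 (NCBI gene 307492) went from 11.14 on the control array to 11.62 on the cocaine array, 1.40-fold higher, and Hars2 (NCBI gene 307491) was 8.80 and 8.51, 1.22-fold lower. Hars1 had the second highest and Hars2 the lowest difference of the family, and their difference from each other, 0.77 on the log2 scale, was the widest among the pairs of enzymes for 1 amino acid. It was 0.75 on the values as deposited. Neither gene passed 1.5-fold. The RefSeq promoter windows of these genes (250 bases before to 50 after the start, build GRCr8) overlap by 243 bases, so both genes read out from the stretch shown here, which is chr18:28672663-28672905 on the plus strand, the strand of Hars2. Capitals mark the 145 bases from the start of Hars1, which is read leftwards, to the start of Hars2, which is read rightwards, and 57.6% of the bases shown are G or C.
Hars1 and Hars2: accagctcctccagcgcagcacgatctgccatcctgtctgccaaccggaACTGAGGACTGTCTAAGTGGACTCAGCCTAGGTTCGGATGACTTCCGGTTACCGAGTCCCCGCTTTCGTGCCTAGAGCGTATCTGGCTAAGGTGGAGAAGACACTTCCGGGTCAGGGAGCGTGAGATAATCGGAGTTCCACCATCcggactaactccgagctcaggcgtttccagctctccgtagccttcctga

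The opposite differences of Hars1 and Hars2 thus stood beside a shared upstream stretch. RefSeq also lists the copies Hars2l1 and Ears2l1 elsewhere in the genome. Whether probes of the paralogs or of these copies bind each other's RNA was not tested, since the probe sequences were not used here.

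Cytosolic and mitochondrial enzymes were then compared as groups. Across the 19 cytosolic genes the median difference was -0.0073, with a range from -0.10 (Eprs1) to 0.48 (Hars1), and none passed 1.5-fold. For the 13 mitochondrial genes the median was -0.017, with a wider range from -0.29 (Hars2) to 0.60 (Aars2), and 1 passed. The medians thus differed by 0.010 on the log2 scale, and this gap was 0.031 on the deposited values and -0.0077 after lowess centring, so no direction holds across the scalings. Gars1 and Kars1, whose genes each encode both the cytosolic and the mitochondrial enzyme, were counted as cytosolic, and without them the gap was 0.0015. Of the deposited values, 13 of the 19 cytosolic genes were higher, 2 lower and 4 identical, and 6 of the 13 mitochondrial genes were higher, 2 lower and 5 identical. Of all transcript clusters 37% were higher, 35.9% lower and 27.2% identical. Of the brighter part, which holds all 19 cytosolic and 10 of the 13 mitochondrial genes, 45.5% were higher, 31% lower and 23.5% identical. The contrast between the compartments was not tested.

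The cytosolic genes had log2 intensities from 7.51 (Vars1) to 13.48 (Qars1) in the control, with a median of 10.72, and from 7.89 to 13.48 with cocaine, with a median of 10.72. The mitochondrial genes ranged from 6.18 (Vars2) to 10.75 (Tars2) in the control, with a median of 8.21, and from 6.36 (Vars2) to 11.14 (Fars2) with cocaine, with a median of 8.18. The mean of both arrays reached the median of all transcript clusters for all 19 cytosolic and for 10 of the 13 mitochondrial genes. Probes differ in how well they bind and the intensities are not scaled to transcript length, so these levels describe the signal of each set and do not rank the abundance of the mRNAs.

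Matching the enzymes by amino acid gave 13 pairs, of which Eprs1, the joint glutamyl- and prolyl-tRNA synthetase, entered 2, and Farsa and Farsb were averaged. In 7 pairs the cytosolic gene had the more positive difference and in 6 the mitochondrial gene did, with a median gap of 0.022, which is that of serine. The gap ran from -0.69 for alanine to 0.77 for histidine. After histidine, the pairs with the cytosolic gene above were those of asparagine (0.23), threonine (0.22) and valine (0.21). On the other side, after alanine, lay phenylalanine (-0.45) and proline (-0.28), the latter with the mitochondrial Pars2 at 7.30 on the control and 7.48 on the cocaine array. For serine both genes held identical deposited values, so that pair has no measured gap. On the deposited values, tryptophan turned to the cytosolic side (0.0054), which left 7 pairs on that side, 5 on the other and serine at 0, and the median gap was 0.0054.

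**Figure D3:**
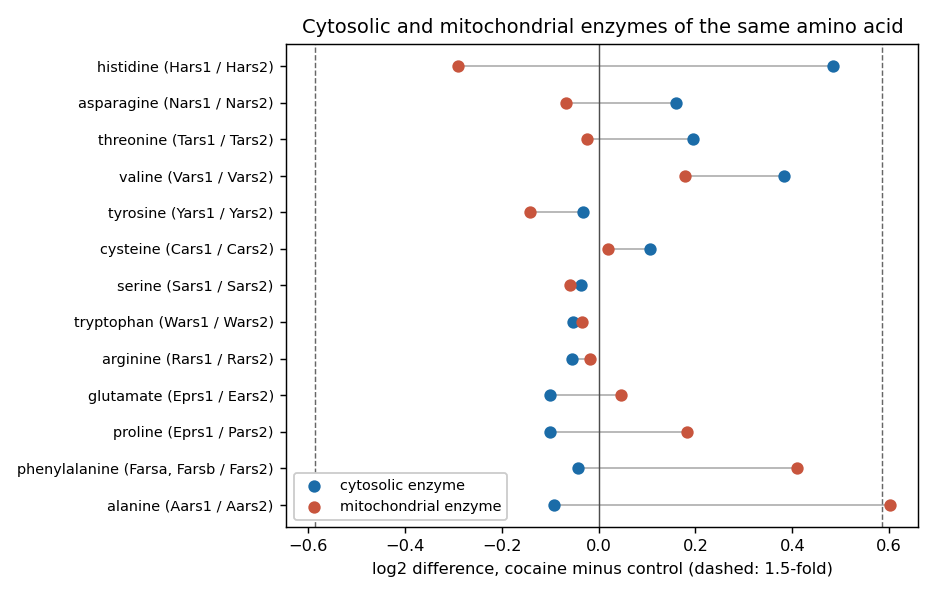
Log2 difference (cocaine minus control, x axis) of the cytosolic (blue) and mitochondrial (red) enzyme of each of 13 amino acids (y axis), in order of the gap between them, with 1.5-fold as dashed lines. Histidine at the top (gap 0.77) and alanine at the bottom (gap -0.69) are the widest and point opposite ways.

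Among the other cytosolic enzymes, a group of 5 lay between 0.11 and 0.19 on the higher side, and each of them was higher under all 4 scalings. Tars1 (threonine) was 10.58 on the control and 10.77 on the cocaine array, and Iars1 (isoleucine) was 9.96 and 10.13. Mars1 (methionine) was 10.77 and 10.94. Nars1 (asparagine) was 12.04 and 12.20, and Cars1 (cysteine) was 8.64 and 8.75. These differences are 1.08-fold to 1.14-fold, and each of them lies within the range of most transcript clusters, at percentiles 76.6 to 84.3. Kars1 (lysine) at 12.39 and 12.45 and Gars1 (glycine) at 11.08 and 11.13 were also higher under all 4 scalings, by less.

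The remaining cytosolic genes were lower or nearly level. Eprs1 was 11.10 on the control and 11.00 on the cocaine array, and together with Aars1 it was lower under all 4 scalings, though its deposited values differed by only -0.049. Qars1, the glutaminyl-tRNA synthetase, had the highest intensity of the family at 13.48 on both arrays. Wars1, the tryptophanyl-tRNA synthetase, which in human cells is known to be induced by interferon-γ, was 10.72 and 10.66, and Rars1 (arginine) was 10.77 and 10.72. Both turned from slightly negative to slightly positive on the deposited values (0.0054 and 0.0068).

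Of the other mitochondrial genes, Yars2 (tyrosine) was 8.09 on the control and 7.95 on the cocaine array, and with Hars2 it was lower under all 4 scalings. Tars2 was 10.75 and 10.72, and Rars2 was 8.52 and 8.50, and both of these were above 0 on the deposited values (0.042 and 0.041).

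**Figure D4:**
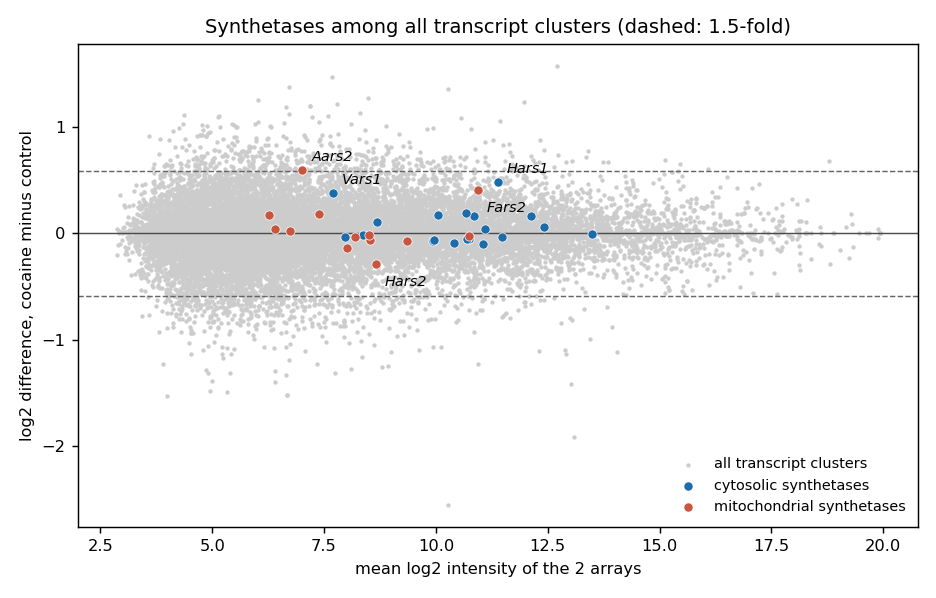
Log2 difference (cocaine minus control, y axis) against the mean log2 intensity of both arrays (x axis) for all 23188 transcript clusters (grey) and for the cytosolic (blue) and mitochondrial (red) synthetases, with 1.5-fold as dashed lines. The synthetases lie inside the grey cloud, and Aars2 sits at the upper line.

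Synthetases fall into a pair of structural classes with unrelated folds of the catalytic domain. The 16 class I genes (for arginine, cysteine, glutamate, glutamine, isoleucine, leucine, methionine, tryptophan, tyrosine and valine) had a median difference of -0.012 and none passed 1.5-fold. Eprs1, whose prolyl part belongs to class II, was counted among them. The 16 class II genes, which include Aars2, Hars1, Fars2 and Hars2, held the gene past 1.5-fold and had a median of 0.014, or 0.066 on the deposited values. By place in the cell, the 7 measured enzymes of the multi-synthetase complex (Eprs1, Iars1, Kars1, Lars1, Mars1, Qars1 and Rars1) ran from -0.10 to 0.17 with a median of -0.0073, and the 12 other cytosolic genes ran from -0.093 to 0.48 with a median of 0.014. All 3 scaffold genes of the complex lay within 1.5-fold, with a median of -0.055, or 0 on the deposited values. Aimp1 was 11.01 on the control and 10.96 on the cocaine array, from identical deposited values, Aimp2 was 9.78 and 9.94, and Eef1e1 was 10.02 and 9.93.

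The composite element TGATGNAAN, in which N is any base, is bound by ATF4 with a C/EBP protein and is known from amino acid response genes. It was looked for on both strands in the 300-base RefSeq promoter windows, which were given for 30 of the 32 synthetases and not for Gars1 and Rars1. It was present in 7 of the 30 windows (23.3%), against 3.97% of all 33469 windows. All 7 belong to the 17 cytosolic windows and none to the 13 mitochondrial ones. The stretches around the matches show a sequence feature found in cytosolic and in no mitochondrial windows, and are printed for the 6 genes other than Aars1, which has 2 matches, with the match in capitals (as TGATGNAAN or as its reverse complement NTTNCATCA), in the direction of the gene and with positions on GRCr8.
Cars1, chr1:208225333-208225365, minus strand: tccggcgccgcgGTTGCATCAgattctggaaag
Iars1, chr17:15193657-15193689, minus strand: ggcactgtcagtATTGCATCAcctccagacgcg
Mars1, chr7:65023751-65023783, minus strand: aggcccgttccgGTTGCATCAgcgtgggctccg
Nars1, chr18:60275776-60275808, minus strand: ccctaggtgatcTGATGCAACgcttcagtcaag
Tars1, chr2:62114810-62114842, minus strand: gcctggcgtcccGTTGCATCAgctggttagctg
Yars1, chr5:146820189-146820212, plus strand: tacgagctcagcTGATGCAACctg

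Set beside the arrays, the 7 genes with the element were Tars1, Iars1, Mars1, Nars1 and Cars1, which were higher under all 4 scalings, Yars1, which held identical deposited values, and Aars1, which was lower. Their median difference was 0.16, with a range from -0.093 to 0.19. The 10 cytosolic genes whose window lacked it had a median of -0.026 and a wider range from -0.10 to 0.48, with Hars1, Vars1 and Kars1 above 0. On the deposited values, 6 of these 10 genes were higher, 1 was lower and 3 were identical, with a median of 0.0044, against a median of 0.18 and 5 higher, 1 lower and 1 identical among the 7. Of the brighter part of all transcript clusters, where the cytosolic genes lie, 45.5% were higher, 31% lower and 23.5% identical. The search was made after these differences had been seen, the gap was not tested, and none of the 7 genes passed 1.5-fold. A match describes letters in a window and is not a binding site. The E-box CACGTG, which MYC and related factors bind, was in 6 of the 30 windows (Aars1, Ears2, Farsb, Iars1, Tars1 and Vars1), against 6.42% of all windows. The E-box is its own reverse complement, and no E-box overlapped a TGATGNAAN match. A search of these windows for another motif was also made and is not reported here.

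Genes of the ATF4 pathway and of the amino acid response lay on both sides of 0 on these arrays. Of 30 such genes, all measured, 29 lay within 1.5-fold, 1 was past it on the lower side and none on the higher side. Of all transcript clusters 2.29% were lower and 1.98% higher by as much. The 30 genes had a median of 0.021 and a range from -0.72 to 0.52. On the deposited values 13 were higher, 9 lower and 8 identical. Of all transcript clusters 37% were higher, 35.9% lower and 27.2% identical. Atf4 itself measured 13.70 on the control array and 14.03 on the cocaine array, 1.26-fold higher. Its target Ddit4, an inhibitor of mTORC1 that glucocorticoids and hypoxia also induce, was the lower gene, at 11.35 and 10.63, 1.65-fold lower. Sesn2 was 8.29 and 7.83, Ddit3, which encodes the stress factor CHOP, was 8.87 and 8.56, and Eif2ak3, which encodes the stress kinase PERK, was 11.91 and 11.51. On the higher side, Chac1, with a mean below the 25th percentile, was 4.58 and 5.10, and Trib3 was 6.54 and 6.81. Asns, the asparagine synthetase, a classical target of ATF4, was 10.34 and 10.29 from identical deposited values.

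Amino acid transporters supply the substrate of the synthetases. Of 15 listed, 14 were measured. Their median was -0.051. With cocaine 1 gene was lower by more than 1.5-fold, against 2.29% of all transcript clusters, and none was higher, against 1.98%. Slc7a6, a carrier of cationic and neutral amino acids, was 10.29 on the control and 9.49 on the cocaine array, 1.75-fold lower. The cystine carrier Slc7a11 was 17.73 and 17.36, the lysosomal arginine sensor Slc38a9 was 10.72 and 10.43, Slc1a4 was 6.45 and 6.21, and Slc7a3 was 5.53 and 5.31. Before normalization 8 of the 14 were lower, 3 higher and 3 identical. Of all transcript clusters 35.9% were lower, 37% higher and 27.2% identical.

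The tRNAs themselves are made by RNA polymerase III and trimmed and modified before they are charged. All 19 measured genes of RNA polymerase III and its factors, of 22 listed, lay within 1.5-fold, with a median of -0.028. Maf1, the repressor of this polymerase, measured 13.80 and 14.24 with cocaine, and the subunit gene Polr3k was 9.10 and 8.67. Polr3b was 12.06 and 11.75, while Gtf3c4 was 10.47 and 10.69. Of 29 measured genes of tRNA maturation, from 36 listed, 1 was lower by more than 1.5-fold, against 2.29% of all transcript clusters. The other 28 lay within 1.5-fold, and the median was 0.045. The lower gene, Pop4, encodes a subunit of RNase P and was 11.30 and 10.71, at the limit with a difference of -0.59 and within the limit on the deposited values (-0.53). Other subunits lay on the opposite side, Rpp14 at 9.36 and 9.79, Pop5 at 9.66 and 10.08 and Rpp38 at 6.30 and 6.70. The phosphatase gene Angel2 was 9.43 and 9.81.

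Charged tRNAs are handed to elongation factors and proofread. All 7 cytosolic elongation genes lay within 1.5-fold with a median of 0.048, and the exchange factor genes Eef1b2 (14.97 on the control and 15.30 on the cocaine array), Eef1d (11.41 and 11.59) and Eef1g (14.92 and 15.05) were on the higher side, while the kinase gene Eef2k had identical deposited values. The 9 measured mitochondrial translation factors, of 10 listed, also lay within 1.5-fold. Their median of -0.063 is the value of Gfm2, whose deposited values were identical, and it was 0 on the deposited values and 0.022 with each array centred on its median. The elongation factor gene Gfm1 was 10.14 and 10.69, 1.46-fold higher and past the limit on the deposited values (0.61), whereas the recycling factor gene Mrrf was 10.43 and 10.03. Tsfm was 8.20 and 7.98, and Mtif2 was 9.55 and 9.34. Mitochondria make glutaminyl-tRNA by amidating glutamate that Ears2 has attached, and the amidation genes Qrsl1 and Gatc and the formyltransferase gene Mtfmt all held identical deposited values, as did Ears2. Of 6 measured genes of proofreading and of selenocysteine insertion, from 8 listed, 1 was higher by more than 1.5-fold, against 1.98% of all transcript clusters. This was Secisbp2, which recognizes the selenocysteine element of mRNAs, at 9.46 and 10.13, 1.59-fold higher. The other 5 lay within 1.5-fold and the median was -0.0069. Among them the kinase gene Pstk was 10.24 and 10.05, Eefsec was 8.83 and 8.92, and Sepsecs and Aarsd1 held identical deposited values.

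Since interferon-γ induces Wars1 in human cells, 16 genes of that response were set beside it. The median of the 15 measured was 0. By more than 1.5-fold 2 genes were higher, against 1.98% of all transcript clusters, and none was lower, against 2.29%. Psmb8, an immunoproteasome subunit, was 12.32 on the control and 12.95 on the cocaine array, and Ido1, a dim gene, was 4.77 and 5.41. Irf9 was 8.33 and 8.75, while Gbp2 was 10.38 and 9.96, Cxcl10 was 8.65 and 8.30 and Gbp5 was 10.06 and 9.95. Over all 10 partner lists, 135 of 151 genes were measured, 3 were past 1.5-fold on the higher and 3 on the lower side, with a median of -0.0050. Against the 1.98% and 2.29% of all transcript clusters, these counts are near the background. Each list's share past 1.5-fold rests on at most 2 genes.

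**Figure D5:**
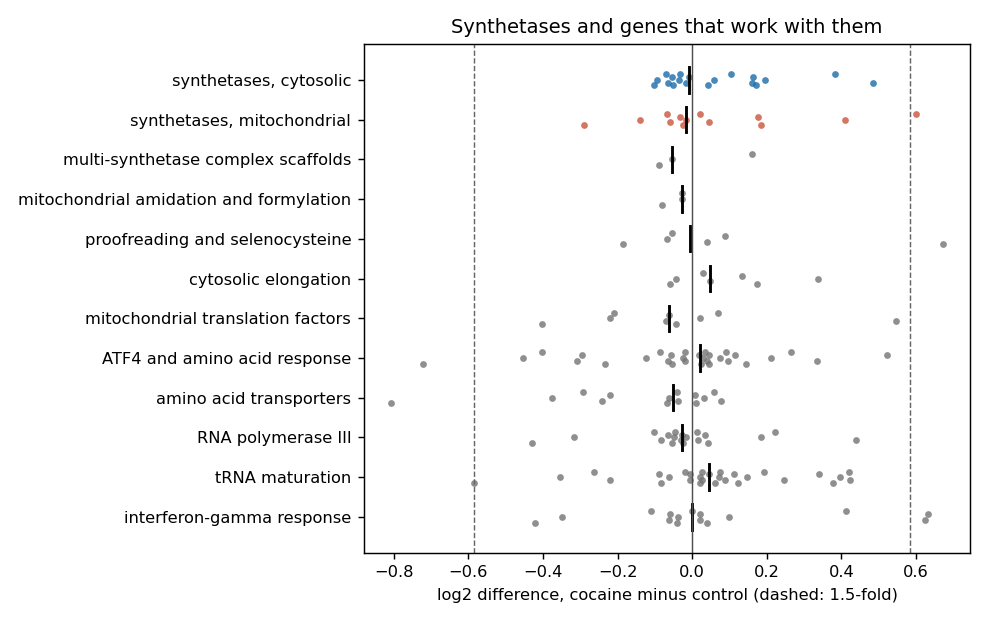
Log2 difference (cocaine minus control, x axis) of each cytosolic and mitochondrial synthetase and of each measured gene of the 10 partner lists (y axis), with the median of each list as a black bar and 1.5-fold as dashed lines. The medians of the partner lists lie between -0.063 and 0.048 (-0.029 and 0.065 on the deposited values), and single genes reach from -0.81 (Slc7a6) to 0.67 (Secisbp2).

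The tissue RNA pools all cells of the thymus, so fewer cells of a type and less RNA per cell cannot be told apart. Of the marker lists, which hold few genes each, 3 of 5 measured adipocyte markers (range -1.24 to 0.29) and 2 of 4 erythroid markers (-1.29 to 0.54) were lower by more than 1.5-fold with cocaine, against 2.29% of all transcript clusters. Of these 2 erythroid genes Slc4a1 was dim, with a mean below the 25th percentile. In the macrophage list 1 of 6 markers was higher (-0.071 to 0.67), against 1.98% of all. None of the 7 thymocyte markers (-0.28 to 0.30), the 3 B cell markers (-0.052 to 0.33), the 4 thymic epithelial markers (-0.25 to 0.37) and the 5 proliferation markers (-0.53 to 0.11) passed 1.5-fold. The part of these cell types in the synthetase values was not tested.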

How the data were processed

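Clariom S arrays measured thymus RNA of 1 rat per group. For every transcript cluster the authors deposited an intensity on a linear scale, which came out of the TAC software. Which version was used, how background was corrected and arrays were normalized, and which genome build the array follows was not given in the sources used here. Array coordinates are therefore not printed. Of 24834 rows, 1646 control rows were left out. The median deposited intensity was 107 with cocaine and 108 for the control. Values were taken to log2 after quantile normalization of both arrays, which changed no difference by more than 0.102. Gene names came from the platform annotation, with 15049 of the 23188 transcript clusters named and all 15049 matched to RefSeq (assembly GRCr8) by gene number, and the brightest transcript cluster stood for a gene with several.

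Each group had 1 array, so no test was run. Differences are cocaine minus control, a fold is the larger intensity over the smaller, and counts past 1.5-fold were set beside those over all transcript clusters. The synthetases, the partner lists and the markers were chosen with earlier results of these data known. All synthetases were named, and of each partner list every gene past 1.5-fold and up to 4 others that differed most and whose mean reached the 25th percentile. Asns, Qrsl1, Gatc, Mtfmt and Aimp1 were named for their role or their identical values, and Chac1 and Trib3 as higher genes of the ATF4 list. Alternatives were 3 other scalings, 2 filters on dim transcript clusters, the mean of transcript clusters, the mean of a list, limits of 1.2-fold and 2-fold, and leaving out identical deposited values or Gars1 and Kars1. Promoter windows came from RefSeq (GRCr8), and the stretches of 1 gene with the ATF4 element are not reported here. The steps were tested on simulated data. The work was done in Python 3.11.15 with pandas 2.3.3, matplotlib 3.10.9, numpy 2.4.6 and statsmodels 0.14.6.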

Additional observations from a re-analysis of the deposited data

How the results depend on the processing

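No paired analysis was possible because the groups held a single array each, which also meant that leaving out a replicate could not be tried. The single synthetase past 1.5-fold, Aars2, was past it under each scaling and filter, while at 2-fold 0 synthetases were higher or lower. At 1.2-fold 4 synthetases were higher and 1 lower, of which 2 higher were cytosolic, and 2 higher and 1 lower were mitochondrial. Of the partner genes 15 were higher and 16 lower at 1.2-fold, and 0 and 0 at 2-fold, against 3 and 3 at 1.5-fold. Of all transcript clusters 11.2% were higher and 11.4% lower at 1.2-fold, and 0.151% and 0.224% at 2-fold, so the partner counts are near the background. The median of all synthetases was 0.041 with each array centred on its median, 0.057 without the identical deposited values and 0.064 as a mean, against -0.012. That of the cytosolic genes was 0.053, 0.057 and 0.065 in the same settings, and that of the mitochondrial genes was 0.080 without the identical values and 0.062 as a mean. For class II the median was 0.066 as deposited, 0.088 with arrays centred on their medians, 0.11 without the identical values and 0.092 as a mean, against 0.014. The medians of all, of the cytosolic and of the mitochondrial synthetases changed sign between the settings. That of class II stayed above 0 but varied in size. No direction of the family is read from these values. None of the 212 other values of single synthetases moved by 0.1 or more on the log2 scale.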

Other observations

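The share of transcript clusters with identical deposited values on both arrays was lower in brighter bins, with 32.2% in the dimmest of 4 equal bins of mean intensity, then 29.5%, 25.8% and 21.1% in the brightest. No synthetase lay in the dimmest bin. Of the 3 in the next bin 2 were identical, of the 12 in the third 4 were, and of the 17 in the brightest 3 were. Quantile normalization moved the differences by a median of 0.043 and 0.041 in the 2 dimmer bins and by -0.033 and -0.044 in the 2 brighter ones.

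The promoter windows of the 30 synthetases had a median of 58.2% G or C, with a range from 44.3% to 76.7%, against a median of 51.7% over all windows. For the 17 cytosolic windows the median was 58.0%, and for the 13 mitochondrial windows it was 58.7%.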
